A study of Mus musculus with 60 samples.

Results

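The genes described are the 40 named members of the unfolded protein response and the Atf4 branch of the integrated stress response that were listed by symbol for this description. All 40 matched a probe set by symbol, where a gene had several the brightest on average was used, and all 40 passed the filter on dim probe sets. They are 40 of 18194 gene symbols on the array and of 12637 genes tested. No measured value entered the rule that chose them, but the list was drawn up with earlier results of these data known. They fall into 2 sensors, 7 transcription factors, 10 Atf4 targets that make, carry or load amino acids, 5 stress effectors, 12 chaperones and folding enzymes of the endoplasmic reticulum (ER) and 4 genes of ER-associated degradation.

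The cells were Balb/c 3T3, an immortal line of mouse embryo fibroblasts used in tests of carcinogenic transformation, and every array holds RNA of that line. Dishes at 60 to 65% confluence received a chemical or 0.75% DMSO, the solvent control, for 24 h or 120 h. The chemicals were benzo(a)pyrene (BaP) and 3-methylcholanthrene (MCA), which are polycyclic aromatic hydrocarbons, 2,4-diaminotoluene (DAT), an aromatic amine, and 2-acetylaminofluorene (AAF, spelled 2-Acetylaminoflourene in the labels), an aromatic amide. In set 1, with doses taken from the literature, 0.5 µM BaP, 2 µM MCA, 50 µM DAT and 25 µM AAF were each given for 24 h and for 120 h. In set 2 the doses were those the labels call IC20 for each chemical and time. They were 1.5 µM BaP, 20 µM MCA, 700 µM DAT and 10 µM AAF for 24 h, and 0.1 µM BaP, 0.1 µM MCA, 0.2 µM DAT and 10 µM AAF for 120 h. Each set has its own DMSO groups at 24 h and 120 h. This makes 20 groups of 3 arrays, 60 arrays in all. The labels call each experiment a triplicate and do not say whether the 3 came from separate cultures, so a p-value measures the spread between these arrays.

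Unfolded protein in the ER is sensed by Perk (the product of Eif2ak3), Ire1 (Ern1) and Atf6. Perk and other kinases phosphorylate the initiation factor eIF2, which slows protein synthesis in general while translation of Atf4 rises. Atf4 then drives genes of amino acid supply and effectors such as Chop (Ddit3), whereas Ire1 splices the Xbp1 messenger and, with Atf6, drives ER chaperones and degradation genes. Atf4 can also be reached without the ER, for example by amino acid shortage, so the 2 groups of targets need not move together. The arrays measure messenger levels and show neither splicing of Xbp1 nor translation of Atf4.

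Promoter letters linked with the 2 branches are shown first, in the 250 bases before the start site of 6 genes chosen because they hold such a motif. They come from RefSeq (mouse build GRCm38.p6), run 5′ to 3′ on the gene's strand and end just before its first base. Capitals mark the CARE core, the C/EBP-Atf response element (letters TGATGNAA, or its reverse complement), the ER stress response element ERSE (CCAAT, 9 bases of any kind, then CCACG) and its shorter form ERSE-II (ATTGG, 1 base of any kind, then CCACG). Asns lies at chr6:7693210-7693459 (minus strand), Chac1 at chr2:119350992-119351241 (plus), Nupr1 at chr7:126625471-126625720 (minus), Herpud1 at chr8:94386179-94386428 (plus), Hspa5 at chr2:34771840-34772089 (plus) and Pdia6 at chr12:17266339-17266588 (plus). The first 3 hold a CARE core, the last 2 hold an ERSE, and Herpud1 holds a CARE core and an ERSE-II.
Asns: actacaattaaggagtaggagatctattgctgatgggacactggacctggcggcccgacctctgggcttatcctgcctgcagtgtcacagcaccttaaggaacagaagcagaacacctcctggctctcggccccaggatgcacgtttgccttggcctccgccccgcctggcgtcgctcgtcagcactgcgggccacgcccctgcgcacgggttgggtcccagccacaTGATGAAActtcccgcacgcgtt
Chac1: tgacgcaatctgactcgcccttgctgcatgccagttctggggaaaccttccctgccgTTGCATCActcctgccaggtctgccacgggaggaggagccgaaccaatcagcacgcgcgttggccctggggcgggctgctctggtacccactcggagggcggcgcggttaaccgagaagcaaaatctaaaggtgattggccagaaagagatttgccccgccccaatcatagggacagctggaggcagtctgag
Nupr1: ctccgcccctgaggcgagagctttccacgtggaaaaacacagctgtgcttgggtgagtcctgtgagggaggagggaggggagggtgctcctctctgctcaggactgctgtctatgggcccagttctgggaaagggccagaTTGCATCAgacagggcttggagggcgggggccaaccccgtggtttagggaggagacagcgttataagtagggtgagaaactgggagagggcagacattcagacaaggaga
Herpud1: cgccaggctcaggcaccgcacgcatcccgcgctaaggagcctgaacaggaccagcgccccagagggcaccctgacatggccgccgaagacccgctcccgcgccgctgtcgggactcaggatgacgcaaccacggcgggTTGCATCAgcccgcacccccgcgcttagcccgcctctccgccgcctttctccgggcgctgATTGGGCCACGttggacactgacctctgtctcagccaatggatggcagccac
Hspa5: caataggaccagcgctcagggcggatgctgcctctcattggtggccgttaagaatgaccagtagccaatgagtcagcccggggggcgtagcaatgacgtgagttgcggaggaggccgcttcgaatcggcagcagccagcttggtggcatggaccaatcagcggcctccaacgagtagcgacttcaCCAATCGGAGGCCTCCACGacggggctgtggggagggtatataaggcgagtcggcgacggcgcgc
Pdia6: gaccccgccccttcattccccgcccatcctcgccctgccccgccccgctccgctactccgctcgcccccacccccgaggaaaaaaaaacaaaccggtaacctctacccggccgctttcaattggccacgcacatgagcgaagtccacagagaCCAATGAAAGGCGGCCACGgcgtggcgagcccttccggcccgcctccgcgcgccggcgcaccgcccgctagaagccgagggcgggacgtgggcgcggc

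Promoters of 37 of the 40 genes were in the RefSeq table, in windows from 250 bases before to 50 bases after the start site. Slc7a5, Wars and Manf were not matched. Both strands were searched, and a match is a description of letters, not of binding. The CARE core was found in 8 of the 37 genes, against 4.51% of 27025 genes in the table. The 8 are Asns, Aars, Trib3, Chac1, Vldlr, Nupr1, Atf3 and Herpud1, and 0 of the 11 chaperones matched hold it. Of the 8 amino acid targets matched, 2 hold it, and Psat1, Phgdh, Shmt2 and Mthfd2 do not. The ERSE was found in 7 of these 11 chaperones, Hspa5, Hsp90b1, Dnajc3, Pdia6, Calr, Canx and Creld2, and in Syvn1, against 0.137% of genes in the table. None of the amino acid targets and effectors matched hold an ERSE. The ERSE-II was found in Herpud1 alone among the members, against 0.0444% of genes, and the core of the unfolded protein response element (TGACGTGG) in 0 of the 37, against 0.714%. The ERSE and the ERSE-II share the letters CCACG, and in these members no base was counted in both.

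**Figure D1:**
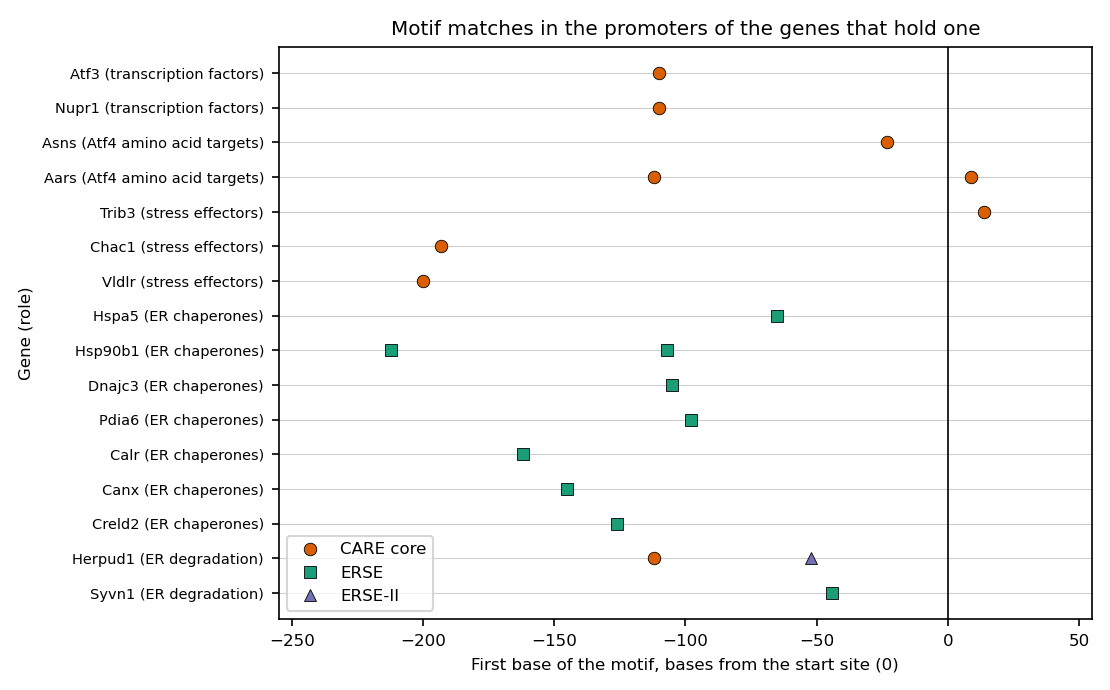
Position of each motif match in the promoters of the members that hold one. The horizontal axis gives the distance of the motif's first base from the start site in bases, each row is a gene with its role, and colours and symbols give the motif. CARE cores (circles) stand in targets, effectors, factors and Herpud1, and ERSE matches (squares) in 7 chaperones and Syvn1.

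The values are deposited intensities, 1 per probe set and array on a linear scale, and the 2 sets had been scaled differently. Array medians were 41.2 to 47.1 in set 1 and 56.3 to 98.9 in set 2. Levels are therefore compared only within a set, and no level of a gene is set against that of another. All 8 fibroblast markers passed the filter on dim probe sets, as did 4 of 5 macrophage, 2 of 5 epithelial and 0 of 4 endothelial markers. The summed intensity of the macrophage list was 386 to 553 in set 1 and 477 to 953 in set 2, against 33036 to 51157 and 100246 to 167722 for the fibroblast list. In such bulk samples fewer cells expressing a gene and less of its RNA in each cell cannot be told apart. Changes are log2 differences with standard errors (SE) from limma, on values quantile-normalized within a set, and a gene "passed" when its Benjamini-Hochberg adjusted p over all 12637 genes was under 0.05. Shares of all genes refer to this adjusted threshold. None is given for counts of members at an unadjusted p under 0.05, so these have no background beside them.

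Replicate numbers carried a signal of their own. Arrays with the same number deviated from their group means together in all 3 pairs in 12 of the 16 treatment comparisons, so counts from a fit with the number as a block are given where they differ from the main count by over 1.5 times. The clearest member is Ddit4, the Redd1 gene, an inhibitor of mTORC1 signalling. In set 2 its level in replicate 3 was the highest of the 3 arrays in all 10 groups, by 1.78 on the log2 scale on average (1.24 to 2.24) over the mean of the other pair. In the DMSO group at 24 h, for instance, it read 338, 485 and 1261 in replicates 1, 2 and 3. Replicate 3 was also highest in all 10 groups of set 2 for Pdia3, Pdia6 and Manf and lowest for Sel1l, and replicate 1 was highest for Cebpb and Aars and replicate 2 for Dnajc3. In set 1 replicate 1 was highest in all 10 groups for Pdia4, Sdf2l1, Sars and Pdia3.

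In the main fit, which does not use the replicate number, 28 of the 40 genes passed in at least 1 of the 16 treatments. The other 12 passed in none, where 55.1% of all genes tested passed in at least 1. The 12 are Atf3, Cebpg and Sars, the chaperone and folding genes Hsp90b1, Pdia3, Pdia4, Calr, Canx, Sdf2l1 and Creld2, and Edem1 and Sel1l of ER degradation. This list holds for the main fit only. With the replicate number as a block, Cebpg, Sars, Pdia3, Calr and Creld2 among them passed in at least 1 treatment, as given below. No share of all genes over the treatments is given for that fit. Shmt2, the mitochondrial enzyme that turns serine into glycine, rose most often, in 7 treatments, and fell in 1. Its dimmer probe sets went apart in some of these. They changed by -0.0055 to 0.86 with 1.5 µM BaP and by -0.14 to 1.13 with 20 µM MCA. Nupr1, a small stress-induced chromatin protein, rose in 5 and fell in none, and so did Ddit4. Chac1, which breaks down glutathione, and Phgdh, the first enzyme of serine synthesis, each rose in 4, and Chac1 also fell in 1. Xbp1 fell in 4 treatments and Eif2ak3 in 3, and neither rose in any.

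**Figure D2:**
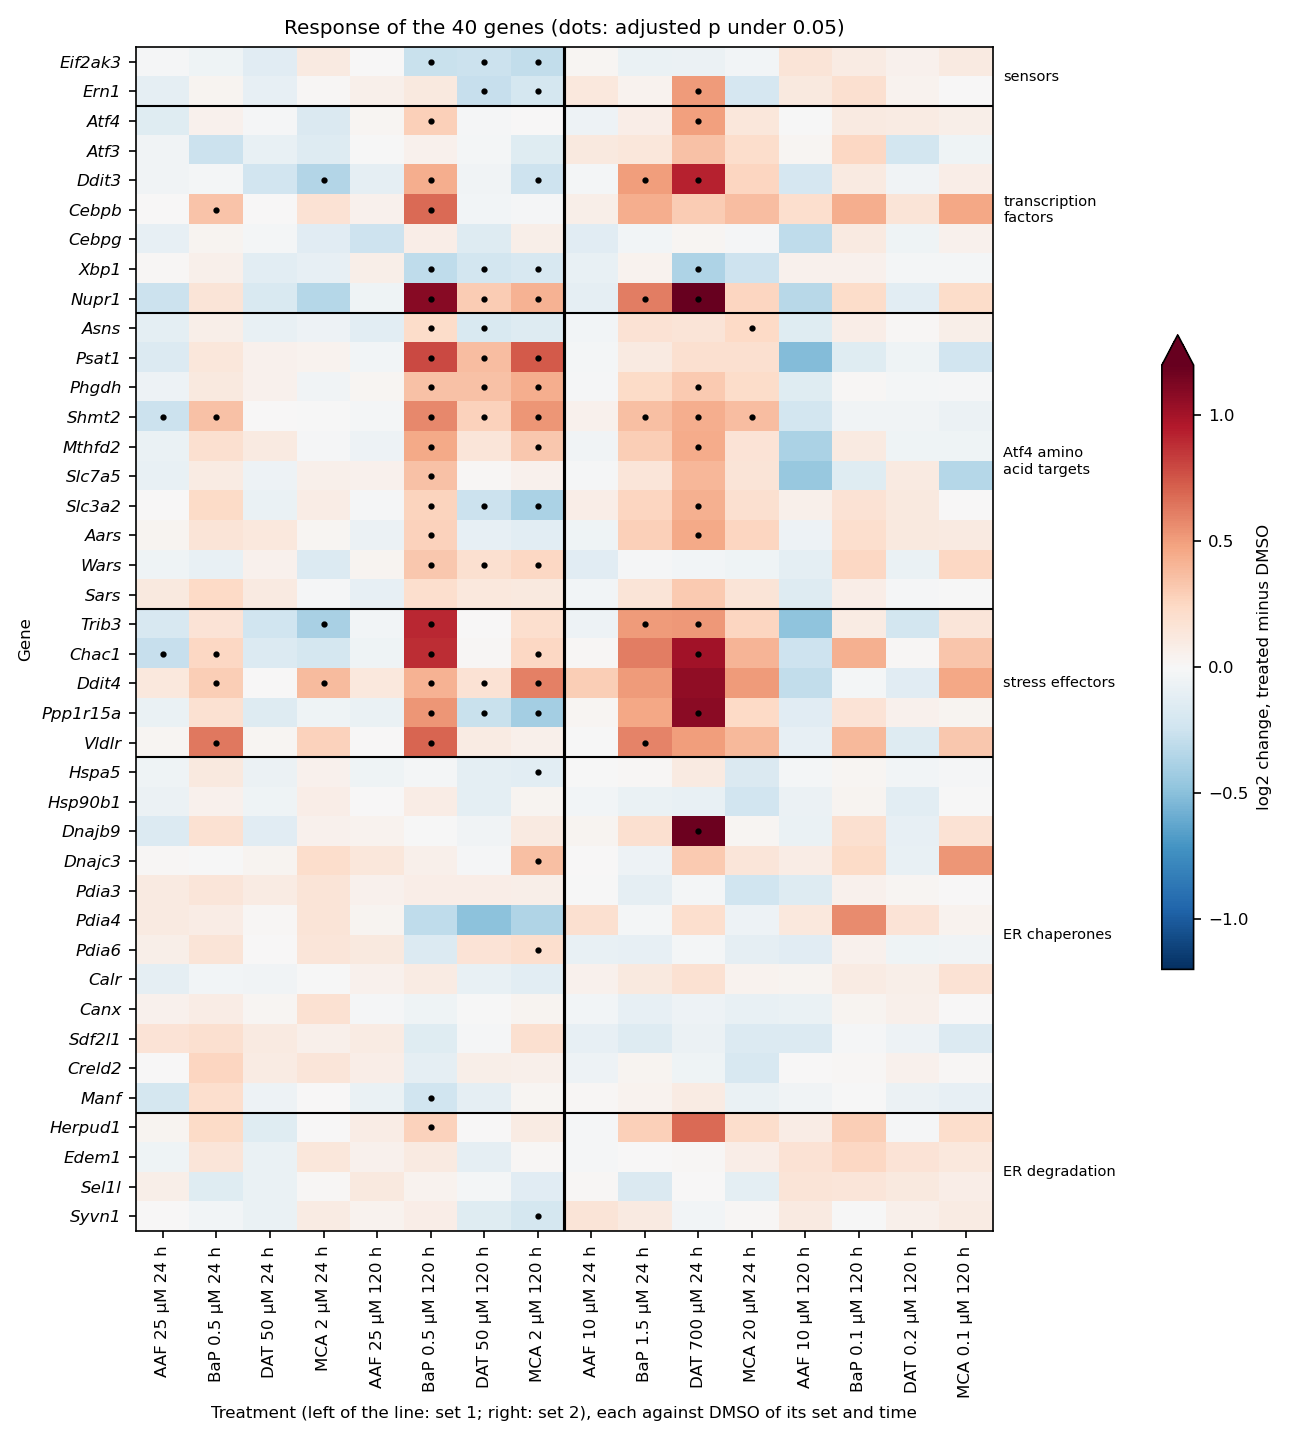
Response of the 40 genes to the 16 treatments. Each cell is the log2 change from DMSO of the same set and time, rows are genes grouped by role, columns are treatments with set 1 left of the line, and dots mark an adjusted p under 0.05 (limma). Colour is saturated above 1.2, which Nupr1 exceeds at 1.71 with 700 µM DAT. There are 31 dots over the 10 amino acid targets, 21 over the 5 effectors and 18 over the 7 transcription factors. The 2 sensors have 6, the 12 chaperones 5 and the 4 ER degradation genes 2. These counts are of the main fit and have no share over all genes beside them. With the replicate number as a block more genes pass. With 0.5 µM BaP at 24 h 4 of 10 targets and 4 of 12 chaperones then rose, and with 700 µM DAT 9 and 3.

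Atf4 itself, the factor of the branch, passed in 2 of the 16 treatments, with log2 changes of 0.49 and 0.28. Its intensity in DMSO was 1902 ± 149 (SD, n = 3 here and below) at 24 h and 1457 ± 33.9 at 120 h in set 1, and 8351 ± 910 and 5225 ± 393 in set 2. Treated groups of set 1 had means of 1683 to 1965 at 24 h and 1431 to 1765 at 120 h, and in set 2 of 7943 to 11073 and 5132 to 5668. The highest mean at 24 h in set 2 was that of 700 µM DAT and the highest at 120 h in set 1 that of 0.5 µM BaP, and these are the 2 treatments in which Atf4 rose. In the remaining 14 treatments it did not pass.

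Ddit3, which encodes Chop, a factor of stress-induced death, read 673 ± 65.2 in DMSO at 24 h and 1171 ± 48.5 at 120 h in set 1, and 1656 ± 35.1 and 3572 ± 98.4 in set 2. Its treated group means ran from 520 with 2 µM MCA to 666 with 0.5 µM BaP at 24 h and from 1001 with 2 µM MCA to 1575 with 0.5 µM BaP at 120 h in set 1. In set 2 they ran from 1642 with 10 µM AAF to 3298 with 700 µM DAT at 24 h and from 3117 with 10 µM AAF to 3905 with 0.1 µM BaP at 120 h. Ddit3 rose in 3 treatments and fell in 2, which are 2 µM MCA at 24 h and at 120 h. With its probe sets averaged, its calls with MCA, 1.5 µM BaP and 700 µM DAT were lost and that with 0.5 µM BaP at 120 h was kept.

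Asns, asparagine synthetase, read 3184 ± 337 and 1671 ± 30.6 in DMSO at 24 h and 120 h in set 1, and 9787 ± 525 and 5838 ± 225 in set 2. Treated means were 2926 to 3281 and 1448 to 1934 in set 1, and 9588 to 11265 and 5200.4 to 6269 in set 2, so the 24 h means of a set lay above its 120 h means whatever the treatment. Trib3, a pseudokinase that restrains Atf4 and Chop, read 363 ± 29.3 and 224 ± 18.3 in DMSO in set 1, and 765 ± 130.0 and 673 ± 40.1 in set 2. Its treated means were 270.2 to 419 and 227 to 444 in set 1, and 745 to 1151 and 498 to 741 in set 2. The highest values were those of 0.5 µM BaP at either time in set 1 and of 700 µM DAT and 1.5 µM BaP at 24 h in set 2.

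Hspa5, which encodes BiP, the main ER chaperone, read 3253 ± 150.02 and 3311 ± 92.1 in DMSO in set 1, and 13753 ± 1675 and 12673 ± 501 in set 2. Over all treatments its group means stayed between 2929 and 3412 in set 1 and between 11736 and 13852 in set 2, and its log2 changes between -0.17 and 0.11. Xbp1 read 903 ± 56 and 887 ± 45.5 in DMSO in set 1, and 2688 ± 335 and 3269 ± 226 in set 2. Its lowest mean at 120 h in set 1 was 727 with 0.5 µM BaP, and the lowest at 24 h in set 2 was 2044 with 700 µM DAT.

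**Figure D3:**
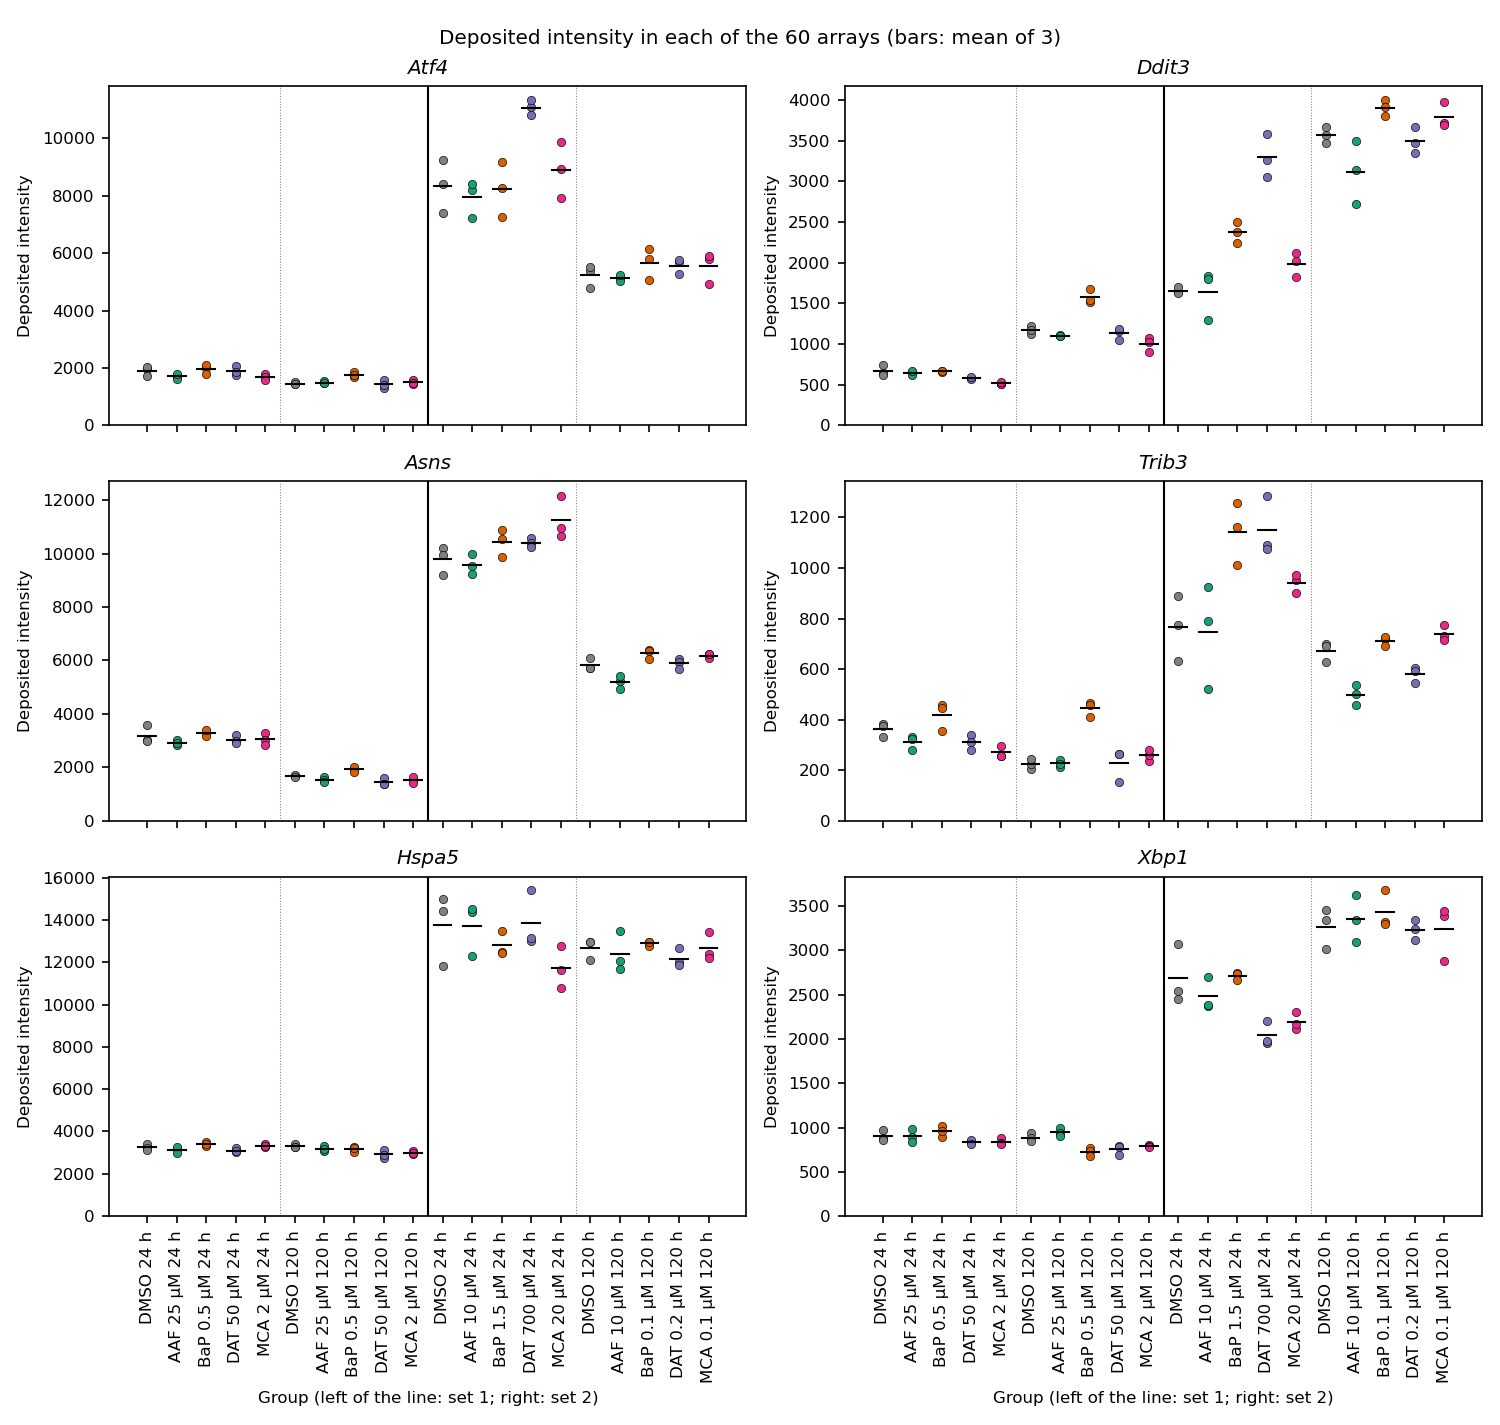
Deposited intensity of Atf4, Ddit3, Asns, Trib3, Hspa5 and Xbp1 in each of the 60 arrays. Points are arrays coloured by chemical, short bars are the means of 3, and the solid line parts set 1 from set 2, which are on different scales. Ddit3 stands higher and Asns lower at 120 h than at 24 h in each set, and Hspa5 is nearly level.

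In the DMSO controls of set 1, 10 members rose and 18 fell from 24 h to 120 h, against 57.7% of all genes tested that passed (29.3% higher, 28.4% lower). In set 2 9 rose and 13 fell, against 40.2% (17.8% higher, 22.4% lower). Of the 10 amino acid targets 7 fell and 1 rose in each set, with medians of -0.88 and -0.63, against 0.0017 and -0.053 over all genes. Without normalization the set 2 median over all genes was 0.11, a shift of over 0.1, and that of the targets -0.82. Psat1, the second enzyme of serine synthesis, read 3459, 2926 and 3234 at 24 h and 639, 689 and 674 at 120 h in set 1. In set 2 it read 9993, 9634 and 11135 at 24 h and 2207, 2504 and 3566 at 120 h. All 24 h arrays lay far above all 120 h arrays. Psat1 fell by 2.19 ± 0.055 (SE) on the log2 scale in set 1 (limma, adjusted p = 3.16e-21) and fell by 1.76 ± 0.18 in set 2 (adjusted p = 1.54e-08).

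Mthfd2, the mitochondrial folate enzyme downstream of serine, behaved likewise. It read 969, 788 and 807 at 24 h and 283, 267 and 239 at 120 h in set 1, and 4447, 3374 and 3286 against 1172, 1246 and 1168 in set 2. It fell by 1.63 and 1.53 on the log2 scale with no overlap of the groups. Slc7a5, the light chain of the large neutral amino acid transporter, read 1201, 1043 and 919 at 24 h and 458, 400.0 and 350.4 at 120 h in set 1, and 4198, 3323 and 3089 against 1373, 1577 and 1294 in set 2. It fell by 1.32 and 1.22. Its partner Slc3a2, the heavy chain, went the other way and rose by 0.41 ± 0.083 in set 1 and 0.49 ± 0.071 in set 2, as the only amino acid target to do so.

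Shmt2 fell by 1.49 and 1.16, Asns by 0.88 and 0.56, Phgdh by 0.88 and 0.70 and the tryptophan tRNA synthetase Wars by 0.36 and 0.53. In set 1 Shmt2 read 1407, 1217 and 1295 at 24 h and 436, 424 and 462 at 120 h, with no overlap. Aars and Sars, synthetases for alanine and serine, did not pass in either set. Atf4 fell by 0.31 and 0.48, and Cebpg, its dimer partner, by 0.32 and 0.49. The dimmer Cebpg probe sets went apart, with changes of -0.52 and 0.32 in set 1 and of -0.72 and 0.14 in set 2.

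Against this decline, Ddit3 rose with time by 0.82 ± 0.050 in set 1 (adjusted p = 7.47e-14) and by 1.18 ± 0.10 in set 2 (adjusted p = 7.47e-10). In set 2 it read 1641, 1631 and 1696 at 24 h and 3474, 3571 and 3670.5 at 120 h, without overlap. A dimmer second Ddit3 probe set changed by -0.34 in set 1 and 0.32 in set 2. The sensors rose in each set, Ern1 by 0.66 and 0.77 and Eif2ak3 by 0.33 and 0.44. The next brightest Ern1 probe set changed by 0.12 and 0.21. The ER degradation genes Sel1l, the adaptor of the Hrd1 ligase, and Edem1, a mannosidase-like protein, rose by 0.69 and 0.70 and by 0.50 and 0.44. For Edem1 this holds for the probe set used, while its other one changed by -1.02 and -0.44. The other Sel1l probe sets ranged from -0.39 to 0.69 in set 1 and from -0.095 to 0.62 in set 2.

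Among the effectors Chac1 fell by 0.65 and 1.10, while Ppp1r15a, the Gadd34 phosphatase subunit that reverses eIF2 phosphorylation, rose by 0.74 in set 1 and changed by 0.13 without passing in set 2. Trib3 fell by 0.67 in set 1 and changed by -0.30 without passing in set 2. Nupr1 fell by 0.96 and 0.38. In set 2 the call of Nupr1 was lost without replicate 1 at 24 h or replicate 1 or 2 at 120 h, that of Cebpg without replicate 1 at either time and that of Wars without replicate 1 at 120 h. Atf3, an early stress factor, was dim, above the array median in 12 of 60 arrays, and read 66, 77 and 45 at 24 h against 12, 43 and 30.2 at 120 h in set 2, where it fell by 1.2 ± 0.34 (adjusted p = 0.00637). That call was lost without replicate 1 of DMSO at 120 h.

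The chaperones changed less with time. In set 1 Dnajb9 and Dnajc3, co-chaperones of BiP, rose and Manf, Pdia6, Hsp90b1 and Creld2 fell, and in set 2 Dnajb9 rose and Manf, a secreted stress protein, fell. The rise of Dnajc3 in set 1 holds for the probe set used, while the mean of its probe sets changed by -0.13. The medians of the 12 were -0.16 and 0.012, the latter -0.14 without normalization and -0.11 with probe sets averaged. Manf fell by 0.57 in set 1 and 0.37 in set 2 and Dnajb9 rose by 0.40 and 0.51, and for both genes the call in set 2 was lost in some leave-outs, Manf without replicates 2 or 3 at 24 h or replicate 1 at 120 h and Dnajb9 without replicate 3 at 24 h or replicate 2 at 120 h. The log2 ratio of 3′ to 5′ actin probe sets, a sign of RNA quality, was 0.29 ± 0.041 and 0.31 ± 0.023 (SD) at 24 h and 120 h in set 1 and 0.29 ± 0.069 and 0.54 ± 0.12 in set 2. The same ratio for Gapdh was -0.28 ± 0.028 and -0.18 ± 0.024 in set 1 and -0.32 ± 0.037 and -0.46 ± 0.080 in set 2, without overlap of the times in either set. The part of these ratios in the changes over time was not tested.

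**Figure D4:**
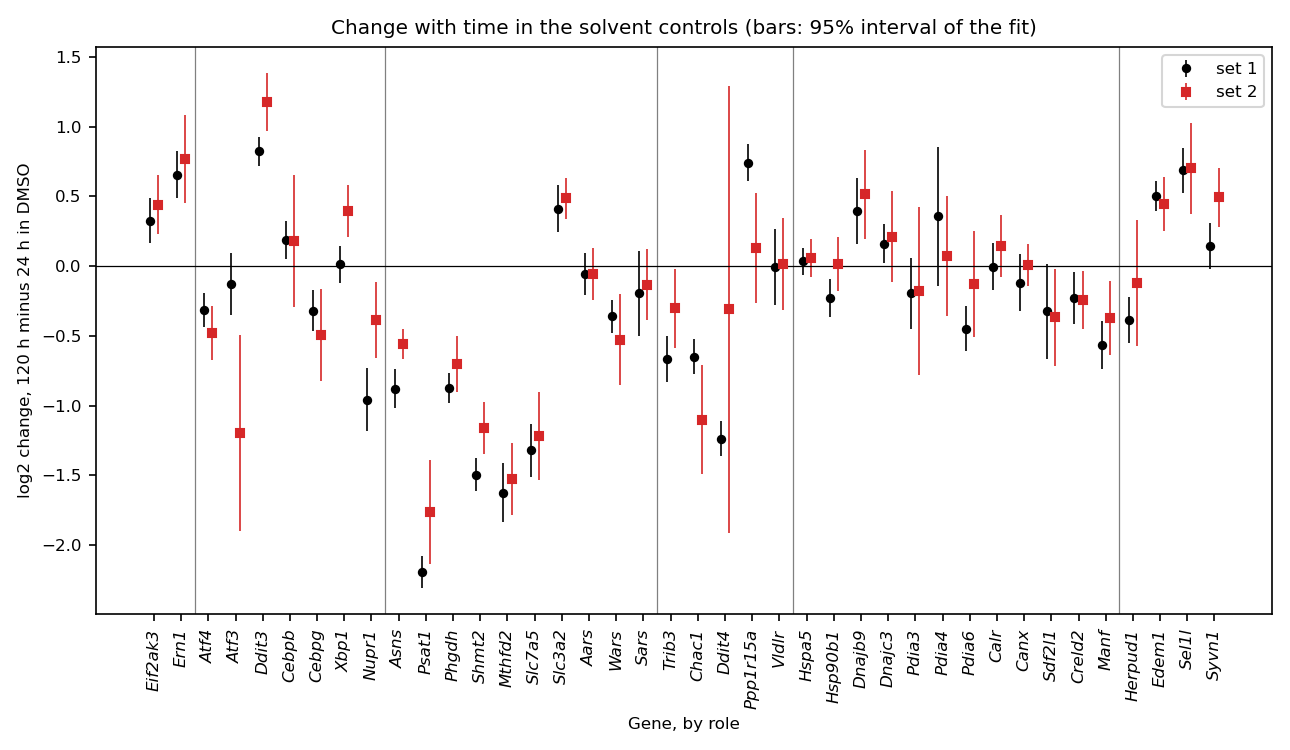
Change from 24 h to 120 h in the DMSO controls for each of the 40 genes, in set 1 (black circles) and set 2 (red squares). The vertical axis is the log2 change, bars are 95% intervals of the limma fit, and genes are ordered by role. Most amino acid targets lie well below 0 in each set, and the wide interval of Ddit4 in set 2 comes with the spread between its replicates.

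With 0.5 µM BaP for 120 h the Atf4 targets rose together and the chaperones did not. In all 19 members rose and 3 fell, 22 of 40, against 26.8% of all genes that passed (13.8% higher, 13% lower). Of the amino acid targets 9 of 10 rose (median 0.34) and of the effectors 5 of 5 (median 0.70), while of the 12 chaperones 0 rose and 1 fell (median -0.035). The median over all genes was -0.014. Among the factors Nupr1, Cebpb, Ddit3 and Atf4 rose and Xbp1 fell.

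Nupr1 read 1035, 1349 and 1370.2 in the treated arrays and 541, 590.1 and 604 in the controls. Each treated array lay above each control, and the change was 1.09 ± 0.11 (SE), or 2.13-fold (adjusted p = 1.25e-08). Trib3 read 465, 457 and 410.5 against 206, 223 and 242, a change of 0.91 ± 0.082 (adjusted p = 1.50e-09), and again the groups did not overlap. Chac1 read 573, 591 and 565 against 283, 328 and 287 and rose by 0.89 ± 0.062 (adjusted p = 1.19e-11). Psat1 read 1120, 1187 and 1186 against 639, 689 and 674 and rose by 0.79 ± 0.055 (adjusted p = 1.47e-11). These groups did not overlap either, and the treated arrays stayed below 2926, the lowest DMSO array at 24 h.

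The other effectors rose too. Vldlr, a lipoprotein receptor that Atf4 induces, rose by 0.70, Ppp1r15a by 0.53 and Ddit4 by 0.42. Of the factors Cebpb rose by 0.68, Ddit3 by 0.44 and Atf4 by 0.28. Atf4 read 1681, 1862 and 1752 against 1434, 1496 and 1441 in the controls, and Ddit3 read 1510.3, 1676 and 1538 against 1121, 1217 and 1175, so neither overlapped. Shmt2 rose by 0.57, Mthfd2 by 0.46, Slc7a5, Phgdh and Wars by 0.32 to 0.35, and Aars, Slc3a2 and Asns by 0.22 to 0.28. Sars changed by 0.20 and did not pass.

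On the ER side Herpud1, which helps assemble the degradation complex and holds both a CARE core and an ERSE-II, rose by 0.28, from 809 to 868 in controls to 991 to 1109. Xbp1 read 770.1, 730.1 and 682 against 935, 879 and 845 and fell by 0.31 ± 0.064 (adjusted p = 0.000508). Eif2ak3 fell by 0.27 and Manf by 0.24. Hspa5 read 3276, 3009 and 3212 against 3416, 3245 and 3272, groups that overlapped, and did not pass. The other chaperones changed by -0.30 (Pdia4) to 0.097.

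Leaving out an array ended the call of Manf in 4 of 6 cases (BaP replicates 1 and 3, DMSO replicates 1 and 2), of Asns without BaP replicate 1 or 2, of Slc3a2 without BaP replicate 1 or DMSO replicate 3, of Slc7a5 without DMSO replicate 3 and of Eif2ak3 without DMSO replicate 1. The 3′ to 5′ actin ratio was 0.44 ± 0.060 (SD) in the treated arrays against 0.31 ± 0.023 in the controls, without overlap, and its part in these changes was not tested.

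With 700 µM DAT for 24 h, 13 members rose and 1 fell, against 7.85% of all genes (4.19% higher, 3.66% lower), and the largest change of any member in any treatment was here. Nupr1 read 4985, 5126 and 4990 against 1508, 1419 and 1365 in DMSO, far apart, and rose by 1.71 ± 0.13, or 3.28-fold (adjusted p = 2.37e-09). Of the effectors 3 of 5 rose (median 1.01), of the amino acid targets 5 of 10 (median 0.36) and of the chaperones 1 of 12 (median 0.039, but -0.0099 without normalization and -0.020 with probe sets averaged), against a median of 0.0020 over all genes.

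The chaperone that rose was Dnajb9, also called ERdj4, a target of spliced Xbp1. It read 2198, 2342 and 1746 against 857, 1004 and 748 and rose by 1.18 ± 0.16 (adjusted p = 1.83e-05). The other 11 changed by -0.093 to 0.32. Hspa5 read 15415, 12987 and 13154 against 14985, 11846 and 14429, overlapping groups. Xbp1 read 1952, 2202 and 1977 against 2541, 3071 and 2451 and fell by 0.37 ± 0.092 (adjusted p = 0.0107), while the sensor Ern1, whose product splices it, rose by 0.51 (adjusted p = 0.0373). The rise of Ern1 holds for the probe set used, while the next brightest changed by 0.054.

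Ppp1r15a read 1505, 1287 and 1482 against 631, 633 and 590.2 and rose by 1.08 ± 0.19 (adjusted p = 0.000535). Chac1 read 3536, 3063 and 2714 against 1750.3, 1388 and 1290.2 and rose by 1.01 ± 0.19 (adjusted p = 0.000953). Ddit3 read 3048, 3259 and 3586 against 1641, 1631 and 1696 and rose by 0.93 ± 0.10. In each of these genes every treated array lay above every control. Atf4 read 11090, 10805 and 11326 against 8404, 7417 and 9234 and rose by 0.49 ± 0.094 (adjusted p = 0.00117), the highest of its 16 changes. Trib3 rose by 0.52, Aars, Mthfd2, Shmt2 and Slc3a2 by 0.43 to 0.46 and Phgdh by 0.32, whereas Asns and Psat1 changed by 0.15 and 0.20 and did not pass.

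With the replicate number as a block, 23 members rose and 1 fell, against 22.9% of all genes. Ddit4 then passed with the same change of 1.07 (adjusted p = 3.27e-06), after missing the threshold in the main fit. It read 935, 1074 and 2534 against 338, 485 and 1261, so the groups overlapped while each treated array exceeded its same-numbered control, by 1.25, 1.05 and 0.90 on the log2 scale. Herpud1 passed likewise, with 4306, 4173 and 5340.5 against 2788, 2210.2 and 3573 (a change of 0.68, block adjusted p = 1.75e-06), as did Cebpb, Slc7a5, Sars, Psat1, Asns and Vldlr, and Dnajc3 and Calr of the chaperones.

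Without DMSO replicate 2 the main count dropped to 9. Single leave-outs ended the calls of Ern1 (any DMSO replicate, DAT replicate 1 or 2), Mthfd2 and Phgdh (DMSO replicate 2 or 3, DAT replicate 1 or 2), Trib3 (DMSO replicate 2 or 3, DAT replicate 2) and Xbp1 (DMSO replicate 2, DAT replicate 1 or 3). The actin ratio was 0.38 ± 0.076 against 0.29 ± 0.069, overlapping groups.

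With 2 µM MCA for 120 h members moved in both directions, as all genes tested did. In all 10 members rose and 8 fell, against 39.1% of all genes that passed (18.9% higher, 20.3% lower), which is close to the members' own share. Psat1, Ddit4, Shmt2 and Phgdh changed most among those that rose. Psat1 read 1138, 1138 and 1140.2 against 639, 689 and 674 and rose by 0.74 ± 0.055 (adjusted p = 3.10e-11). Ddit4 read 376, 408 and 397 against 236, 279 and 252 and rose by 0.60 ± 0.061 (adjusted p = 8.32e-09). Shmt2 read 665, 631 and 664 against 436, 424 and 462 and rose by 0.53 ± 0.058. Phgdh read 1665, 1687 and 1587 against 1167, 1212 and 1182 and rose by 0.43 ± 0.052. None of these groups overlapped.

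Nupr1 rose by 0.42, Dnajc3 by 0.36, Mthfd2 by 0.32, Wars and Chac1 by 0.25 and Pdia6, a disulfide isomerase, by 0.20. Ppp1r15a, by contrast, read 256, 315 and 299.7 against 366, 395 and 402 and fell by 0.41 ± 0.064 (adjusted p = 8.47e-06). Slc3a2 read 2284, 2361 and 2018 against 2922, 2838 and 2737 and fell by 0.38 ± 0.083 (adjusted p = 0.000620). Eif2ak3 fell by 0.29, Ddit3 by 0.25, Ern1, Xbp1 and Syvn1, the Hrd1 ubiquitin ligase, by 0.19 to 0.21, and Hspa5 by 0.12. Of the amino acid targets 5 rose and 1 fell (median 0.18) and of the chaperones 2 rose and 1 fell (median 0.049), against -0.021 over all genes.

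The call of Pdia6 holds for the probe set used, while the mean of its probe sets changed by -0.0039. The next brightest Ern1 probe set changed by 0.051, opposite to the one used. Leave-outs of a single array ended the calls of Ern1 in 5 of 6 cases, of Hspa5 and Pdia6 in 4, of Xbp1, Mthfd2 and Syvn1 in 3 and of Eif2ak3 in 1 (DMSO replicate 1). The count was 13 to 16 in the leave-outs, 11 without normalization (7 rose, 4 fell) and 10 in the fit of all 60 arrays (6 rose, 4 fell).

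With 50 µM DAT for 120 h 6 members rose and 6 fell, against 23.7% of all genes (11.7% higher, 12% lower). Psat1 read 964, 727 and 878 against 639, 689 and 674 and rose by 0.37 ± 0.055 (adjusted p = 1.25e-05). Phgdh read 1678, 1418 and 1451 against 1167, 1212 and 1182 and rose by 0.35 ± 0.052 (adjusted p = 9.49e-06). These treated arrays all lay above the controls. Nupr1 read 741, 532 and 883 against 541, 590.1 and 604, which overlap as deposited, and rose by 0.31 ± 0.11 (adjusted p = 0.0433). Shmt2 rose by 0.27, Wars by 0.19 and Ddit4 by 0.18.

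Ern1 read 209.6, 126 and 198 against 208, 219 and 222, which overlap as deposited, and fell by 0.27 ± 0.082 (adjusted p = 0.0143). The low value is replicate 2, without which the call was lost. The next brightest Ern1 probe set changed by -0.066. Ppp1r15a fell by 0.27, Eif2ak3 by 0.26, Slc3a2 by 0.25, Xbp1 by 0.22 and Asns by 0.19. Without DMSO replicate 1 or DAT replicate 3 the count was 7, without normalization it was 6 (3 rose, 3 fell) and in the fit of all 60 arrays 4 (2 rose, 2 fell). Psat1, Phgdh, Shmt2 and Ppp1r15a passed in all 6 leave-outs, and Nupr1 in 1. MCA and DAT were given at different doses and share their controls, so the log2 changes of the 12 genes called with DAT stand side by side only, MCA first. They were 0.74 and 0.37 for Psat1, 0.43 and 0.35 for Phgdh, 0.53 and 0.27 for Shmt2, 0.42 and 0.31 for Nupr1, 0.25 and 0.19 for Wars and 0.60 and 0.18 for Ddit4. For the genes that fell they were -0.38 and -0.25 for Slc3a2, -0.41 and -0.27 for Ppp1r15a, -0.21 and -0.27 for Ern1, -0.29 and -0.26 for Eif2ak3, -0.19 and -0.22 for Xbp1 and -0.16 and -0.19 for Asns, which did not pass with MCA.

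At 24 h, 0.5 µM BaP raised 5 members and lowered none, against 9.42% of all genes (4.51% higher, 4.91% lower). Vldlr read 614, 442 and 519 against 411, 291 and 281 and rose by 0.63 ± 0.13 (adjusted p = 0.00185). Shmt2 read 1759, 1538 and 1730.1 against 1407, 1217 and 1295 and rose by 0.35 ± 0.058 (adjusted p = 0.000117). Cebpb, a factor of the same dimer family as Atf4's partners, read 1557, 1408 and 1428 against 1172, 1138 and 1126 and rose by 0.34 ± 0.066 (adjusted p = 0.000915). Ddit4 read 800.0, 738 and 812 against 684, 581 and 624 and rose by 0.30 ± 0.061. Chac1 rose by 0.25.

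For the 4 genes with array values given, the treated arrays lay above the controls. The medians were 0.15 for amino acid targets and 0.13 for chaperones, against -0.0037 over all genes. Blocking on the number gave 14 that rose and 1 that fell, against 16.6% of all genes, among them the chaperones Creld2, Manf, Hspa5 and Dnajb9. Without DMSO replicate 1 the main count was 12, without normalization 3 and in the fit of all 60 arrays 2, and Chac1 was lost without BaP replicate 3 or DMSO replicate 2.

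BaP at 1.5 µM for 24 h in set 2 also raised 5 members and lowered none, against 2.4% of all genes (1.19% higher, 1.2% lower). Nupr1 read 2487, 1997 and 2260 against 1508, 1419 and 1365 and rose by 0.62 ± 0.13 (adjusted p = 0.00943). Vldlr read 982, 919 and 651 against 571, 583 and 402 and rose by 0.59 ± 0.16 (adjusted p = 0.0475). Trib3 read 1163, 1256 and 1012 against 891, 773 and 631 and rose by 0.51 ± 0.14 (adjusted p = 0.0499). In all of these the treated arrays lay above the controls. Ddit3 read 2502, 2245 and 2381 against 1641, 1631 and 1696, also apart, and rose by 0.50 ± 0.10 (adjusted p = 0.00585). Shmt2 rose by 0.36.

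The effectors had a median of 0.51, the amino acid targets of 0.20 (0.12 without normalization) and the chaperones of -0.044, against -0.0082 over all genes. Ddit3 alone was called in all 6 leave-outs. The count was 1 and 2 without BaP replicates 1 and 2, and 3, 2 and 2 without DMSO replicates 1, 2 and 3, and 9 in the fit of all 60 arrays. The block raised this to 15 that rose and none that fell, against 10.7% of all genes, now with Chac1 (0.61), Ddit4 (0.51), Ppp1r15a (0.46), Cebpb (0.44) and 5 more amino acid targets.

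MCA at 2 µM for 24 h raised Ddit4 and lowered Trib3 and Ddit3, 3 of 40 against 2.22% of all genes (1.08% higher, 1.14% lower). Ddit4 read 804, 777 and 897 against 684, 581 and 624 and rose by 0.38 ± 0.061 (adjusted p = 0.000251). Trib3 read 296, 257 and 257 against 384, 329 and 375 and fell by 0.39 ± 0.082 (adjusted p = 0.00565). Ddit3 read 514, 514 and 532 against 648, 624 and 747 and fell by 0.35 ± 0.050 (adjusted p = 5.70e-05). In all 3 genes, which are shown because they were called, the groups did not overlap. Each was called in all 6 leave-outs. Without normalization 1 rose and 1 fell, as the call of Trib3 was lost. With the replicate block 2 rose and 5 fell, against 5.1% of all genes, though same-numbered arrays did not all deviate together here.

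MCA at 20 µM for 24 h in set 2 raised Shmt2 and Asns, 2 of 40 against 1.31% of all genes (0.625% higher, 0.688% lower). Shmt2 read 5354, 5148 and 5552 against 4064, 4313 and 4355 and rose by 0.37 ± 0.090 (adjusted p = 0.0314). Asns read 12162, 10672 and 10960.2 against 10226, 9205 and 9929 and rose by 0.24 ± 0.054 (adjusted p = 0.0165). The treated arrays lay above the controls, but the count was 0 without any of the DMSO replicates or MCA replicate 1, and 1 without MCA replicate 2 or 3. It was also 0 without normalization and with probe sets averaged. The replicate block gave 8 that rose and 3 that fell, against 7.76% of all genes, with Xbp1, Hspa5 and Pdia3 among those that fell. The chaperone median was -0.10 and that of the amino acid targets 0.19, against -0.0092 over all genes.

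AAF gave the fewest calls. At 25 µM for 24 h Shmt2 and Chac1 fell, 2 of 40 against 0.91% of all genes (0.609% higher, 0.301% lower). Chac1 read 392, 397 and 389.8 against 530, 421 and 500.0 and fell by 0.27 ± 0.062 (adjusted p = 0.0242), and Shmt2 read 1075.5, 1133 and 1050.0 against 1407, 1217 and 1295 and fell by 0.26 ± 0.058 (adjusted p = 0.0232). The treated arrays lay below the controls, but neither passed without AAF replicate 1 or 3 or DMSO replicate 1, without normalization or in the fit of all 60 arrays. With the replicate block 5 members fell, against 5.53% of all genes, with Nupr1, Psat1 and Manf added. At 25 µM for 120 h limma called 0 members, against 0.356% of all genes, with 3 at an unadjusted p under 0.05, and at 10 µM for 24 h 0, against 0.0237%, with 0 at an unadjusted p under 0.05. The other 6 settings called 0 in these 2 comparisons. Leaving out DMSO replicate 1 gave 1 call at 25 µM for 120 h.

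AAF at 10 µM for 120 h had 0 members called in the main fit, against 0.562% of all genes, with 7 at an unadjusted p under 0.05 and 1 call without AAF replicate 3. With the replicate block 8 fell and none rose, against 8.56% of all genes. They are Psat1, Slc7a5, Mthfd2, Shmt2 and Phgdh of the amino acid targets, Trib3, Nupr1 and Cebpg. Psat1 read 1700.4, 1588 and 2618 against 2207, 2504 and 3566, so the groups overlapped while each treated array lay below its same-numbered control, and its change was -0.52 (block adjusted p = 3.07e-05). The fit of all 60 arrays called 3.

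The low doses at 120 h in set 2 had 0 calls in the main fit. For 0.1 µM BaP that stands against 1.44% of all genes, with 6 members at an unadjusted p under 0.05. For 0.1 µM MCA it stands against 2.47%, with 2 at an unadjusted p under 0.05, and for 0.2 µM DAT against 0%, with 0. These shares are of the adjusted threshold and are no background for the unadjusted counts. With the replicate block 0.1 µM MCA gave 5 that rose and 2 that fell, against 9.86% of all genes: Cebpb, Chac1, Ddit4, Vldlr and the chaperone partner Dnajc3 rose, and Psat1 and Slc7a5 fell. For 0.1 µM BaP the block gave 6 that rose and none that fell, against 10.6% of all genes. Same-numbered arrays did not all deviate together there. Cebpb read 8288, 5065 and 5792 with 0.1 µM MCA, 7919, 5148 and 5687 with 0.1 µM BaP and 5242, 4155 and 4134 in DMSO, with replicate 1 highest in each group. The fit of all 60 arrays called 1 member for 0.1 µM BaP and 1 for 0.1 µM MCA, and all settings called 0 for 0.2 µM DAT.

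DAT at 50 µM for 24 h likewise had 0 members called, against 0.174% of all genes. There were 4 members at an unadjusted p under 0.05, with a smallest adjusted p of 0.0539 (limma), and 1 call without DMSO replicate 1. In the blocked fit Ddit3 fell by 0.23 (adjusted p = 0.00386), against 2.56% of all genes called. The other 5 settings called 0.

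BaP and MCA were given at the same dose and time only at 0.1 µM for 120 h. Between them 0 of 40 members differed (limma, 1 pair of chemicals compared), against 0.0791% of all genes, with 2 at an unadjusted p under 0.05, Pdia4 and Slc3a2, and with 0 calls in the other 6 settings. The difference of BaP minus MCA was 0.52 for Pdia4 with a 95% interval of 0.090 to 0.95, and 0.17 for Slc3a2 (0.020 to 0.31). For Atf4 it was 0.032 (-0.16 to 0.23), for Ddit3 0.031 (-0.18 to 0.24), for Asns 0.016 (-0.095 to 0.13) and for Hspa5 0.037 (-0.10 to 0.17). For Ddit4 the interval ran from -2.09 to 1.11 in this fit, which does not use the replicate number. A large difference either way was not detectable with that spread. The intervals bound the difference and do not show that the 2 hydrocarbons act alike.

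Responses at 24 h and 120 h were compared where the dose was the same. In the main fit some members differed with BaP, MCA and DAT. With AAF none did, but there at most 0.0554% of all genes differed. For 0.5 µM BaP 8 members responded higher and 2 lower at 120 h than at 24 h, against 8.51% of all genes that passed this test of the difference (5.02% higher, 3.48% lower). Nupr1 differed most, by 0.94 ± 0.16 (SE, adjusted p = 0.000141), followed by Trib3 (0.74), Psat1 (0.65), Chac1 (0.64), Ddit3 (0.46), Wars (0.41), Ppp1r15a (0.35) and Cebpb (0.34). Manf (-0.44) and Xbp1 (-0.37) were lower. Vldlr, Shmt2 and Ddit4, which rose at 24 h too, did not pass this test. With the replicate block 11 were higher and 5 lower, against 15.3% of all genes, without normalization 5 were higher and 1 lower, and in the fit of all 60 arrays 3 were higher and none lower.

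For 2 µM MCA 7 were higher and 4 lower at 120 h, against 28.2% of all genes (14.8% higher, 13.4% lower). That is close to the members' own share. Nupr1 (0.76), Psat1 (0.70), Trib3 (0.59), Shmt2 (0.54), Phgdh (0.48), Chac1 (0.46) and Wars (0.41) were higher, and Slc3a2 (-0.47), Eif2ak3 (-0.40), Ppp1r15a (-0.36) and Syvn1 (-0.31) lower. Without normalization 6 were higher and 1 lower, and in the fit of all 60 arrays 5 and 2. The block count was 17, against 37.5% of all genes. For 50 µM DAT Nupr1 (0.49), Psat1 (0.32), Phgdh (0.31) and Shmt2 (0.26) were higher, 4 of 40 against 8.21% (4.91% higher, 3.29% lower), and 7 with the block, against 15.4%. The main count for DAT is also close to the share of all genes. The DAT count was 0 without normalization and in the fit of all 60 arrays. For AAF 0 members differed at 25 µM, against 0.0554% of all genes, and 0 at 10 µM, against 0%, with 2 at an unadjusted p under 0.05 in each. The block called 0 and 1, against 0.95% and 0.554% of all genes, and the other 5 settings 0. These differences share the 24 h and 120 h controls of their set.

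Amino acid targets and chaperones were set against each other by the mean log2 level of each list in each array, minus its mean in the matching DMSO group. These differences are descriptions and were not tested. The targets exceeded the chaperones most with 0.5 µM BaP for 120 h, by 0.44 ± 0.039 (SD, n = 3), where the 3 arrays ran from 0.40 to 0.47 and the DMSO arrays from -0.012 to 0.010. With 20 µM MCA and 1.5 µM BaP for 24 h the differences were 0.28 ± 0.15 and 0.22 ± 0.13, with wider spread and DMSO arrays from -0.060 to 0.12. With 700 µM DAT it was 0.16 ± 0.061, from 0.31 ± 0.022 for the targets and 0.15 ± 0.050 for the chaperones, among which Dnajb9 changed most.

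For 50 µM DAT and 2 µM MCA at 120 h the differences were 0.15 ± 0.031 and 0.14 ± 0.021. The sign was opposite with 10 µM AAF for 120 h, at -0.17 ± 0.12, and with 2 µM MCA for 24 h, at -0.11 ± 0.030. In the remaining 8 treatments the means lay between -0.081 and 0.031.

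**Figure D5:**
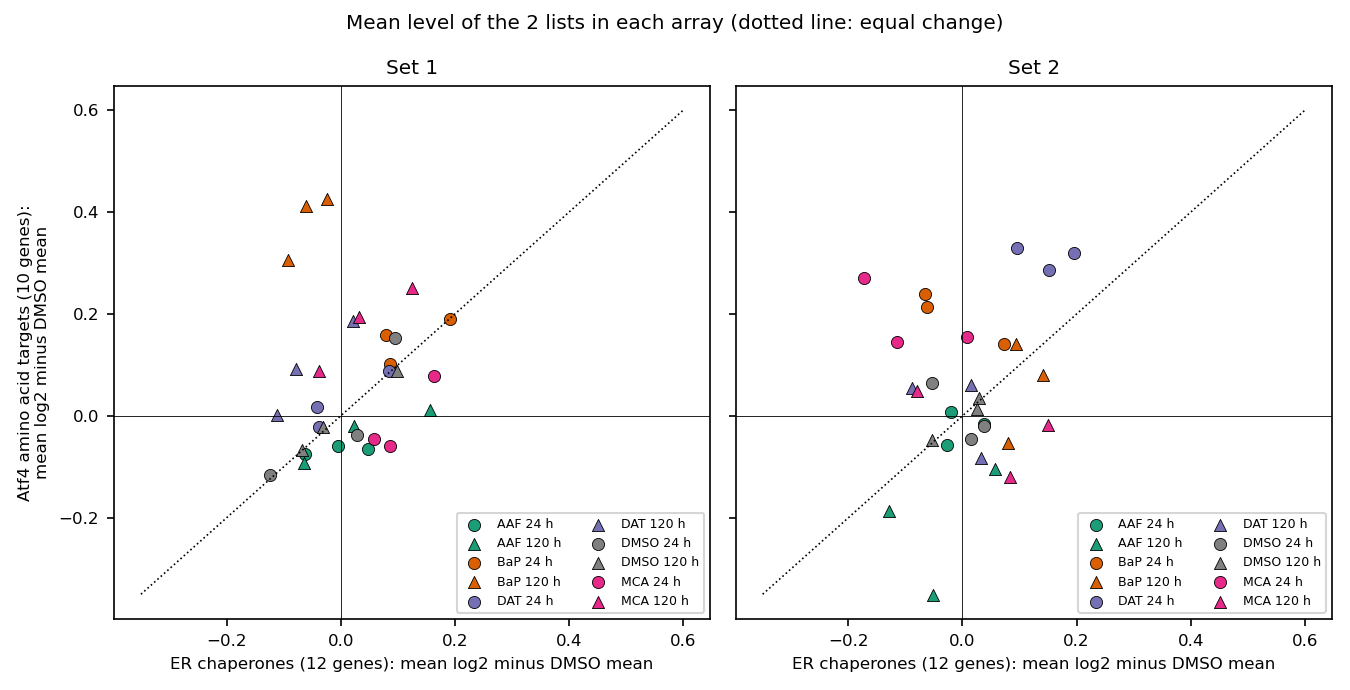
Mean log2 level of the 10 amino acid targets (vertical) against that of the 12 ER chaperones (horizontal) in each array, both minus the mean of the DMSO group of the same set and time. Colours are chemicals, circles 24 h and triangles 120 h, and the dotted line marks equal change. The 3 arrays of 0.5 µM BaP at 120 h stand apart at the upper left of set 1, with targets up by 0.38 ± 0.066 (SD) and chaperones at -0.059 ± 0.033.

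Wider lists of the same pathways held 98 further genes, of which 87 were tested. With 0.5 µM BaP for 120 h 18 rose and 9 fell, against 26.8% of all genes. Slc6a9, the glycine transporter, rose by 1.24 ± 0.088, and Stc2, a secreted glycoprotein, and Kdelr3, a receptor that retrieves ER proteins, each fell by 0.56. Here 6 of 16 further tRNA synthetases and 7 of 18 further genes of amino acid synthesis and transport rose and none fell, while of 18 further ER folding genes 1 rose and 4 fell. With 700 µM DAT 15 rose and none fell, against 7.85%, led by Gadd45a, a growth arrest gene, at 2.13 ± 0.16, Aldh1l2, a mitochondrial folate enzyme, at 0.66, and Slc1a5, a glutamine transporter, at 0.65.

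With 2 µM MCA for 120 h 24 rose and 20 fell, against 39.1%. Bcat1, a branched-chain aminotransferase, rose by 0.81, Psph, the last enzyme of serine synthesis, by 0.79, and Gadd45a fell by 0.78. Of the tRNA synthetases 11 of 16 rose and none fell, and of the folding genes 1 of 18 rose and 5 fell. With 50 µM DAT for 120 h 11 rose and 14 fell, against 23.7%, led by the folate enzymes Mthfd1 (0.57) and Mthfd1l (0.51), which rose, and Gadd45a, which fell by 0.52. From 24 h to 120 h in DMSO 15 of 16 synthetases fell in set 1, against 28.4% of all genes that fell. In set 2 13 of 16 fell, against 22.4%, and none rose in either set. Bcat1 fell by 2.26 and 1.88 and Cth, a cysteine-forming enzyme, by 1.69 and 1.53.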

How the data were processed

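RNA of 60 samples of Balb/c 3T3 cells was hybridised to Affymetrix mouse arrays, 1 sample per array. The authors deposited linear intensities per probe set (45101 per array), made with GCOS per the submitters' processing notes. How they were normalized is not given in the sources used here. Trimmed means were 500.0 in every set 2 array and 153 to 188 in set 1, so the sets were analysed apart.

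Symbols came from the platform annotation: 34958 probe sets had 1 symbol, 932 several and 9211 none or were not listed, and 204 kept an older symbol. Values were taken as log2(intensity + 16), quantile-normalized within a set, and the brightest probe set on average stood for a gene. Genes above the array median in at least 3 arrays were tested (12637). Fold changes are on the log2(intensity + 16) scale, which understates changes of dim genes. limma 3.58.1 in R 4.3.3 fitted 10 groups of 3 arrays in each set, with an intensity trend and Benjamini-Hochberg adjustment at 0.05. The number of arrays limits the precision. The script was tested on simulated data.

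Each treatment was compared with DMSO of its set and time, DMSO at 120 h with 24 h, responses at the same dose between times, and BaP with MCA at 0.1 µM. The alternatives were no normalization, a single fit of all 60 arrays, a pseudocount of 64, no filter, averaged probe sets, a replicate block within time and leaving out each array. Same-numbered arrays were taken as paired where all 3 correlations of their deviations from group means were over 0.1, a pairing read from the labels' replicate numbers and this check. That held in 12 of 16 treatments (not in 2 µM MCA at 24 h, nor in 50 µM DAT, 0.1 µM BaP and 0.2 µM DAT at 120 h), in DMSO over time in set 2 but not in set 1, and for BaP with MCA. The mean correlation of same-numbered arrays over the treatments was 0.046 to 0.47, and of other arrays -0.23 to -0.013.

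The 40 members and all lists were chosen with earlier results of these data known. All members could be named. Values in every array were given for up to 4 members with the largest changes past the threshold and for Atf4, Ddit3, Asns, Trib3, Hspa5 and Xbp1, with others added after their values were seen. For genes chosen because they were called, groups without overlap follow in large part from that choice and are no separate support. No share of all genes without overlap is given. Of the wider lists, at most 3 genes a comparison were named, those with the largest changes past the threshold. Protein sequences and 7 genes of the wider lists without a matched symbol were not analysed here.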

Additional observations from a re-analysis of the deposited data

Results flagged for a closer look

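The response of 25 member and chemical pairs in set 1 differed between 24 h and 120 h by a test of the difference itself (limma, Benjamini-Hochberg adjusted p under 0.05 over all genes). They are 10 of 40 members with 0.5 µM BaP, against 8.51% of all genes, 4 with 50 µM DAT, against 8.21%, and 11 with 2 µM MCA, against 28.2%. The DAT and MCA counts are close to the shares of all genes and do not set the members apart from them. With 0.5 µM BaP the response at 120 h minus that at 24 h was 0.94 for Nupr1, 0.74 for Trib3, 0.65 for Psat1, 0.64 for Chac1, 0.46 for Ddit3, 0.41 for Wars, 0.35 for Ppp1r15a, 0.34 for Cebpb, -0.37 for Xbp1 and -0.44 for Manf, all on the log2 scale. With 50 µM DAT it was 0.49 for Nupr1, 0.32 for Psat1, 0.31 for Phgdh and 0.26 for Shmt2. With 2 µM MCA it was 0.76 for Nupr1, 0.70 for Psat1, 0.59 for Trib3, 0.54 for Shmt2, 0.48 for Phgdh, 0.46 for Chac1, 0.41 for Wars, -0.31 for Syvn1, -0.36 for Ppp1r15a, -0.40 for Eif2ak3 and -0.47 for Slc3a2. Nupr1 and Psat1 were in all 3 lists, which share the DMSO arrays of both times. The groups have 3 arrays, so no array was tested for standing apart from its group.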

How the results depend on the processing

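Of 158 calls of a member in a comparison, 118 were kept without normalization, 111 in the fit of all 60 arrays, 155 with a pseudocount of 64, 143 without the filter, 121 with averaged probe sets and 158 with the replicate block. Averaging reversed Pdia6 with 2 µM MCA at 120 h (-0.0039), Dnajc3 over time in set 1 (-0.13) and Edem1 over time in set 1 (-0.26) and set 2 (-0.00051). Over leave-outs 935 calls were kept and 163 lost. The cause of these changes was not tested. The DMSO comparisons over time and 0.5 µM BaP at 120 h kept their member counts within 1.5 times under all settings run. With 3 arrays a group, dim genes such as Atf3 and those with replicate spread such as Ddit4 in set 2 allow only wide intervals.

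Without normalization the members called were 0 for 25 µM AAF at 24 h, 3 for 0.5 µM BaP at 24 h, 6 for 50 µM DAT at 120 h, 11 for 2 µM MCA at 120 h, 0 for 20 µM MCA, and 6, 0 and 7 for the responses over time to BaP, DAT and MCA. The target median was 0.12 for 1.5 µM BaP and -0.82 for DMSO over time in set 2, and the chaperone median -0.0099 for 700 µM DAT and -0.14 for DMSO over time in set 2. In the fit of all 60 arrays the counts were 0 for 25 µM AAF, 2 for 0.5 µM BaP and 1 for 2 µM MCA at 24 h, 4 for 50 µM DAT and 10 for 2 µM MCA at 120 h, 9 for 1.5 µM BaP, 3 for 10 µM AAF, 1 for 0.1 µM BaP and 1 for 0.1 µM MCA at 120 h, and 3, 0 and 7 for the responses over time to BaP, DAT and MCA.

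With the replicate block the counts were 5 for 25 µM AAF, 15 for 0.5 µM BaP, 1 for 50 µM DAT and 7 for 2 µM MCA at 24 h in set 1, and 15 for 1.5 µM BaP, 24 for 700 µM DAT and 11 for 20 µM MCA at 24 h in set 2. At 120 h in set 2 they were 8 for 10 µM AAF, 6 for 0.1 µM BaP and 7 for 0.1 µM MCA. For the responses over time they were 16 for BaP, 7 for DAT and 17 for MCA in set 1 and 1 for 10 µM AAF. Of all genes the block called 10.6% for 0.1 µM BaP, 5.1% for 2 µM MCA at 24 h and 0.554% for the 10 µM AAF response. The other block shares stand above. For the other alternatives no share over all genes is given. For 2 µM MCA at 24 h and 0.1 µM BaP the samples share only a number. The same holds for 50 µM DAT at 120 h, so the MCA and DAT responses over time rest in part on such groups. The block lost no call.

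With averaged probe sets the counts were 1 for 25 µM AAF, 8 for 0.5 µM BaP, 2 for 1.5 µM BaP and 0 for 20 µM MCA at 24 h and 2 for the DAT response, and the chaperone median was -0.020 for 700 µM DAT, -0.18 for 20 µM MCA, 0.11 for 0.1 µM BaP and -0.11 for DMSO over time in set 2. Without the filter 1.5 µM BaP had 3 and the DAT response 2, and a pseudocount of 64 gave the DAT response 2. Leaving out single arrays gave 0 to 2 for 25 µM AAF, 4 to 12 for 0.5 µM BaP and 0 to 1 for 50 µM DAT at 24 h, 0 to 1 for 25 µM AAF and 7 to 9 for 50 µM DAT at 120 h, 1 to 5 for 1.5 µM BaP, 9 to 14 for 700 µM DAT, 0 to 1 for 20 µM MCA, 0 to 1 for 10 µM AAF at 120 h and 2 to 4 for the DAT response. Target medians then ran from 0.16 to 0.27 for 1.5 µM BaP, 0.30 to 0.40 for 700 µM DAT, 0.16 to 0.26 for 20 µM MCA, 0.035 to 0.22 for 50 µM DAT at 120 h, -0.012 to 0.057 for 0.2 µM DAT, 0.12 to 0.33 for the MCA response and 0.025 to 0.18 for BaP minus MCA. Chaperone medians ran from -0.011 to 0.14 for 700 µM DAT, -0.18 to -0.043 for 20 µM MCA, 0.0026 to 0.086 for 0.1 µM BaP, -0.095 to 0.047 for 0.2 µM DAT and -0.26 to -0.057 for DMSO over time in set 1.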
